A study of Mus musculus with 8 samples.

Results

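The genes described here are 9 genes of the dystroglycan complex and of the costamere: Dag1, Sgca, Sgcb, Sgcd, Sspn, Dtna, Utrn, Itga7 and Vcl. They were taken by name from the deposited table of 49315 genes, and all 9 were among the 16180 genes that passed the filter on low counts. The series holds RNA sequencing of the heart of C57BL/6 mice, an inbred strain, at an age of 8 weeks. There are 4 female and 4 male libraries, and the labels name no treatment or altered allele. Both groups share strain, tissue and age, and sex is the contrast. The labels do not say that each library is a separate animal or which part of the heart was taken, so p-values measure the spread between these libraries, which may be technical.

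The dystroglycan complex spans the membrane of striated muscle cells. Dystroglycan binds laminin in the matrix outside the cell and large actin-binding linker proteins inside it, the sarcoglycans and sarcospan stabilise that link from within the membrane, and dystrobrevin belongs to its signalling arm in the cytoplasm. Costameres are the rib-like sites where the outermost Z-discs are fixed to the membrane through this complex and, side by side with it, through integrin, talin and vinculin. Loss of several of these proteins causes muscular dystrophy or cardiomyopathy.

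Total counts ran from 32746054 to 47097765 per library, and all male totals exceeded all female ones. The 9 genes together took 0.147% to 0.155% of the counts of a library. The libraries carried heart muscle RNA: the summed level of 10 cardiomyocyte markers, among them Myh6, Tnnt2 and Actc1, was 91939 to 93581 CPM (counts scaled to library size) in females and 85460 to 95283 CPM in males. That of 10 skeletal muscle markers was 6.13 to 6.98 CPM in females and 5.96 to 7.52 in males. Xist lay at 178 to 206 CPM in the female libraries and at 0.188 to 0.349 in the male ones, which matches the labels of all 8 libraries.

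Of the 9 genes, which were chosen with earlier results of these data known, 1 differed between the sexes. Dtna, which encodes alpha-dystrobrevin, was 1.13-fold higher in males. The other 8 genes were not called, and their 95% intervals lay between 0.882-fold and 1.12-fold, male over female. A gene is said to be called where its Benjamini-Hochberg adjusted p, over all genes tested, was below 0.05 in the quasi-likelihood test of edgeR. By that rule 1 of 9 was higher in males, against 2.03% of all genes tested, and 0 were higher in females, against 1.76% (either direction, 3.79%). At an unadjusted p below 0.05, edgeR gave the same counts of 1 and 0, where 19.5% of all genes tested passed in either direction, and DESeq2 and limma-voom each called 1 of the 9. The median log2 fold change of the 9 genes was 0.031, against -0.00074 over all genes tested, and the median of its size without sign was 0.047 against 0.09. Among the 5459 genes tested whose mean log2 CPM was at least that of Sgcd, the lowest of the 9, these medians were 0.023 and 0.058, with 3330 positive and 2129 negative values. Of these 5459 genes, edgeR called 180 higher in males and 101 in females, and 1353 had an unadjusted p below 0.05. The median standard deviation within a sex was 0.054 on the log2 scale for the 9 genes, 0.063 for those 5459 genes and 0.108 for all genes tested, which include genes of low level. The plot of CPM by library shows the spread of each gene on a common relative scale.

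**Figure D1:**
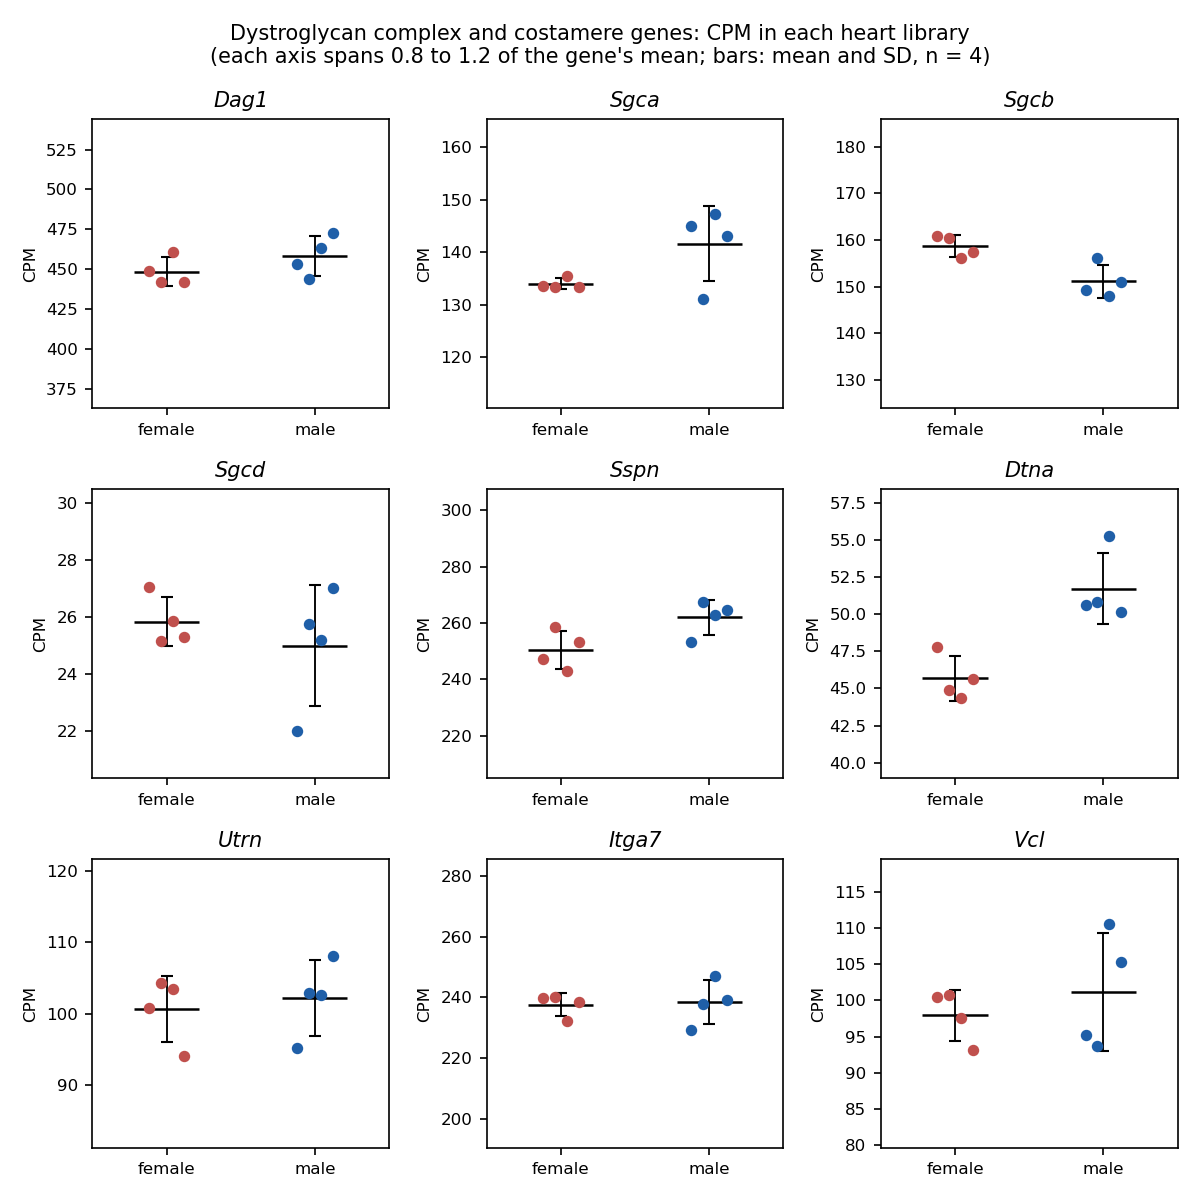
CPM (vertical axes, each spanning 0.8 to 1.2 of the mean of its gene) of the 9 genes in 4 female (red) and 4 male (blue) libraries. Points are libraries, long bars the mean and short bars the SD. The sexes separate without overlap for Dtna, with 44.3 to 47.8 CPM in females and 50.1 to 55.3 in males, and overlap for the other 8 genes.

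Levels between genes were compared per exon length, as reads per kilobase of summed exon length and scaled library size (RPKM). Sgca, alpha-sarcoglycan, had the highest level of the 9 genes, with a mean of 79.4 ± 3.63 RPKM (SD over all 8 libraries), followed by Dag1 at 71.3 ± 1.79 and Itga7 at 59.3 ± 1.34. Sspn was at 51.3 ± 1.72 and Sgcb at 38.2 ± 1.21 RPKM. Below these came Vcl at 19 ± 1.15, Utrn at 8.19 ± 0.38, Dtna at 7.39 ± 0.566 and Sgcd at 3.08 ± 0.191 RPKM. The lowest library of each gene lay above the highest library of the next gene in this order, except for Utrn and Dtna, whose ranges of 7.6 to 8.73 and 6.73 to 8.39 RPKM overlapped. Sgca and Sgcd encode subunits of the same sarcoglycan complex, and Sgca stood at the 96.7th percentile of the genes tested and Sgcd at the 51.3rd. Exon length here sums the exons of all isoforms, so the level of a gene whose heart isoform is short is understated. The level of Vcl is uncertain because its exons overlap another gene, as described with its values.

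**Figure D2:**
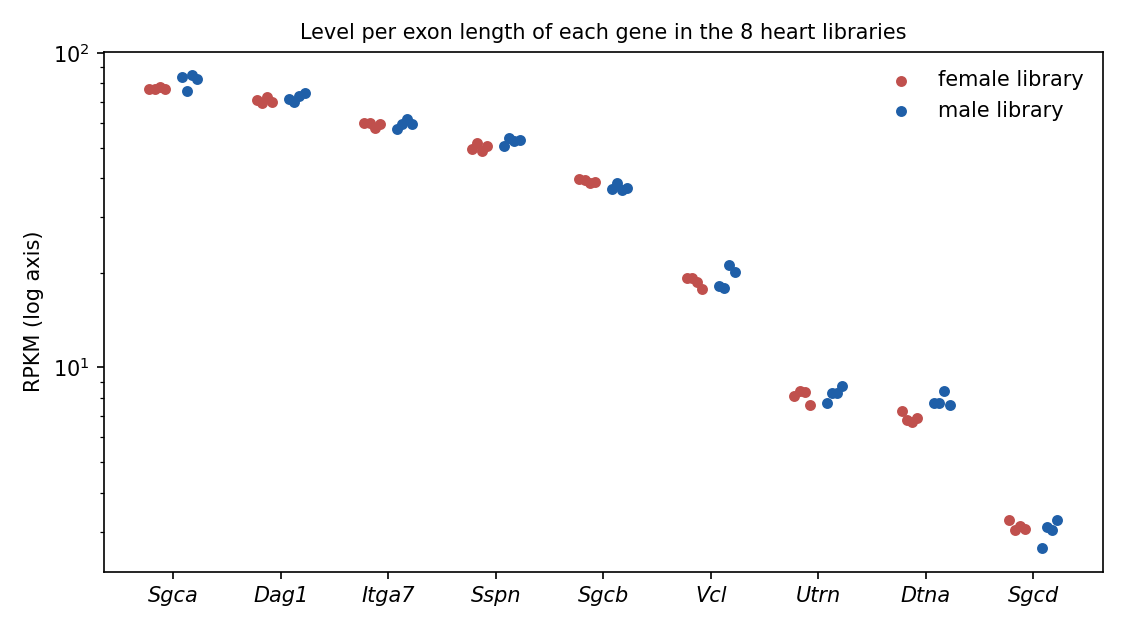
RPKM (vertical log axis) of the 9 genes, ordered by their mean, in 4 female (red) and 4 male (blue) libraries; each point is a library. The means run from 79.4 RPKM for Sgca to 3.08 for Sgcd, and only Utrn and Dtna overlap with a neighbour in the order.

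Dag1 encodes dystroglycan, which is cleaved into the laminin-binding alpha and the membrane-spanning beta subunit (chromosome 9, 108204634 to 108263958, minus strand, GRCm38). Its level was 449, 442, 461 and 442 CPM in female replicates 1 to 4 and 453, 444, 463 and 473 CPM in male replicates 1 to 4. The sexes overlapped, with the highest value in male replicate 4. The means were 448 ± 8.95 CPM in females and 458 ± 12.6 in males (SD, n = 4 each), a log2 fold change, male minus female, of 0.031 (standard error, SE, 0.036; edgeR adjusted p = 0.68). The 95% interval of the difference ran from -0.046 to 0.11, so its upper bound was 1.08-fold.

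The 4 genes of the sarcoglycan and sarcospan subcomplex gave no call: 0 of 4 by edgeR, with 0 at an unadjusted p below 0.05 and 0 by DESeq2 and by limma-voom. Sgca (chromosome 11, 94962791 to 94976327, minus strand) was at 134, 133, 136 and 133 CPM in female replicates 1 to 4. In male replicates 1 to 4 it was at 145, 131, 147 and 143 CPM. Thus 3 male libraries lay above all females and male replicate 2 lay below all of them. Male minus female, the log2 fold change was 0.081 (SE 0.04; edgeR adjusted p = 0.29).

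Sgcb encodes beta-sarcoglycan, which with delta-sarcoglycan forms the core on which the sarcoglycans assemble (chromosome 5, 73632749 to 73647790, minus strand). Its CPM were 161, 160.3, 156 and 157 in female replicates 1 to 4 and 149, 156, 148 and 151 in male replicates 1 to 4. The direction was opposite to that of Sgca, and the sexes overlapped only by male replicate 2, at 156.2 CPM, and female replicate 3, at 156.1. Sgcb gave a log2 fold change of -0.07 (SE 0.033; edgeR adjusted p = 0.27), with a 95% interval of -0.14 to 0.0014.

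Sgcd, delta-sarcoglycan (chromosome 11, 46896253 to 47988969, minus strand), rested on the fewest reads of the 9 genes, with 847 to 1238 counts per library. It was at 27.1, 25.2, 25.9 and 25.3 CPM in female replicates 1 to 4 and at 22, 25.7, 25.2 and 27 CPM in male replicates 1 to 4. Male replicate 1 was the lowest library, and the other male libraries lay within the female range. The log2 fold change was -0.047 (SE 0.061; edgeR adjusted p = 0.73), and without male replicate 1 it was 0.0092.

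Sspn encodes sarcospan, a small protein with several membrane passes that binds the sarcoglycans (chromosome 6, 145931641 to 145965223, plus strand). Its CPM were 247, 258, 243 and 253 in female replicates 1 to 4 and 253, 267, 263 and 265 in male replicates 1 to 4. Male replicates 2, 3 and 4 lay above all females and male replicate 1 among them. The difference amounted to a log2 fold change of 0.065 (SE 0.036; edgeR adjusted p = 0.34). Of its exon bases, 69 (1.38%) are shared with Sspnos on the opposite strand, whose mean level was 0.424 CPM for females and 0.433 for males.

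Dtna encodes alpha-dystrobrevin, a cytoplasmic protein of the complex that binds the linker protein (chromosome 18, 23415415 to 23659714, plus strand). It was at 47.8, 44.9, 44.3 and 45.7 CPM in female replicates 1 to 4 and at 50.6, 50.8, 55.3 and 50.1 CPM in male replicates 1 to 4, from 1530 to 2359 counts per library. All male libraries lay above all female ones, and male replicate 3 was the highest. It was the only one of the 9 genes whose sexes did not overlap, as was the case for 12% of all genes tested. Among the 5459 genes whose mean log2 CPM was at least that of Sgcd, 844 had no overlap. The means were 45.7 ± 1.52 CPM in females and 51.7 ± 2.39 in males (SD, n = 4 each), a log2 fold change of 0.18 (SE 0.042, 95% interval 0.087 to 0.27; edgeR adjusted p = 0.04). In bulk tissue, fewer cells that express the gene and less of its RNA per cell cannot be told apart. The counts sum all isoforms of the gene, and no exon base of Dtna is shared with another gene of the deposited table.

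The call of Dtna was close to the threshold. It held without female replicate 1 (edgeR adjusted p = 0.043) and without male replicate 4 (0.048). It was lost without female replicate 2 (0.1), female replicate 3 (0.1), female replicate 4 (0.087), male replicate 1 (0.057), male replicate 2 (0.065) or male replicate 3 (0.11). The log2 fold change stayed between 0.15 and 0.2 over these 8 fits, and the adjusted p ran from 0.013 in DESeq2 to 0.11 over all 18 alternatives.

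Markers of other cells also differed between the sexes, in lists chosen with earlier results of these data known. Females had higher levels of 8 of 10 white adipocyte markers, and males of 0, against 1.76% and 2.03% of all genes tested. These 8 include Adrb3 (log2 fold change -3.29) and Retn (-2.18). The summed level of the list was 697 to 868 CPM in females and 568 to 670.3 in males. Most of this sum came from Fabp4, which was not called and averaged 527 CPM in females and 494 in males. Females also had higher levels of 2 of 10 fibroblast markers, the proteoglycan gene Lum (-0.66) and the collagen gene Col3a1 (-0.35), and males of 0. The summed level of the fibroblast list was 3401 to 3626 CPM in females and 2890 to 3274 in males. Most of that sum came from Gsn, which was not called and averaged 2072 CPM in females and 1936 in males. Of 10 smooth muscle and pericyte markers, Rgs5 was higher in males (0.18) and Acta2 in females (-0.39). Their summed level was 975 to 1052 CPM in females and 980.4 to 1051 in males, to which Rgs5 gave a mean of 396 and 447. Of the 10 log2 fold changes, 8 were negative and 2 positive. At an unadjusted p below 0.05, edgeR gave 4 higher in females and 1 in males. Of 10 endothelial markers, Tie1 was higher in males (0.2) and 0 were higher in females. Their summed level was 1149 to 1285 CPM in females and 1181 to 1316 in males. The endothelial list had 5 positive and 5 negative log2 fold changes, with a median of 0.0059. At an unadjusted p below 0.05, edgeR gave 2 of them higher in each sex. Of 10 cardiomyocyte markers, 5 tested skeletal muscle markers and 8 Schwann cell markers, 0 were called by edgeR. In the fibroblast list all 10 log2 fold changes were negative, and 7 genes had an unadjusted p below 0.05 in edgeR. Over all genes tested, 19.5% had such a p in either direction. For the fibroblast markers DESeq2 called 5 and limma-voom 2. For the endothelial markers DESeq2 called 3 and limma-voom 1, for the smooth muscle and pericyte markers 2 and 2, and for the white adipocyte markers 7 and 8. The cardiomyocyte, skeletal muscle and Schwann cell lists held 1, 2 and 2 genes at an unadjusted p below 0.05, DESeq2 called 1, 0 and 0, and limma-voom called 0 of each. The summed level of the Schwann cell markers was 59.8 to 70.5 CPM in females and 57.5 to 64.8 in males. The part of these markers in the difference of Dtna was not tested.

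Utrn encodes utrophin, a large linker between actin and dystroglycan that in mature muscle is richest at nerve contacts and is also made by vessels (chromosome 10, 12382188 to 12861735, minus strand). It was at 101, 104, 103 and 94.1 CPM in female replicates 1 to 4 and at 95.2, 103, 103 and 108 CPM in male replicates 1 to 4. Female replicate 4 and male replicate 1 were low, male replicate 4 was the highest library, and the ranges of the sexes overlapped. On the log2 scale, the fold change was 0.022 (SE 0.047, 95% interval -0.08 to 0.12; edgeR adjusted p = 0.85).

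Itga7 and Vcl belong to the integrin arm of the costamere. Itga7, the muscle laminin receptor subunit alpha 7 (chromosome 10, 128933813 to 128958277, plus strand), was at 239.7, 240.2, 232 and 238 CPM in female replicates 1 to 4 and at 229, 238, 247 and 239 CPM in male replicates 1 to 4. Its highest and lowest values were both male, so the female range lay inside the male one. The log2 fold change was 0.0048 (SE 0.035, 95% interval -0.072 to 0.081; edgeR adjusted p = 0.96), the smallest difference of the 9 genes.

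Vcl encodes vinculin, which ties integrin-bound talin to actin (chromosome 14, 20929433 to 21033673, plus strand). It was at 100.5, 101, 97.6 and 93.1 CPM in female replicates 1 to 4 and at 95.2, 93.7, 111 and 105 CPM in male replicates 1 to 4. Male replicates 3 and 4 lay above all females, and male replicates 1 and 2 within their range. Vcl had a log2 fold change of 0.047 (SE 0.054; edgeR adjusted p = 0.69). Of the 5229 exon bases of Vcl, 2087 (39.9%) are shared with Ap3m1, an adaptor complex gene on the opposite strand that was at 27.9 CPM in both sexes. The strand setting of the counting is not given in the sources used here, so the reads of this stretch may be missing from both genes or belong to either.

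**Figure D3:**
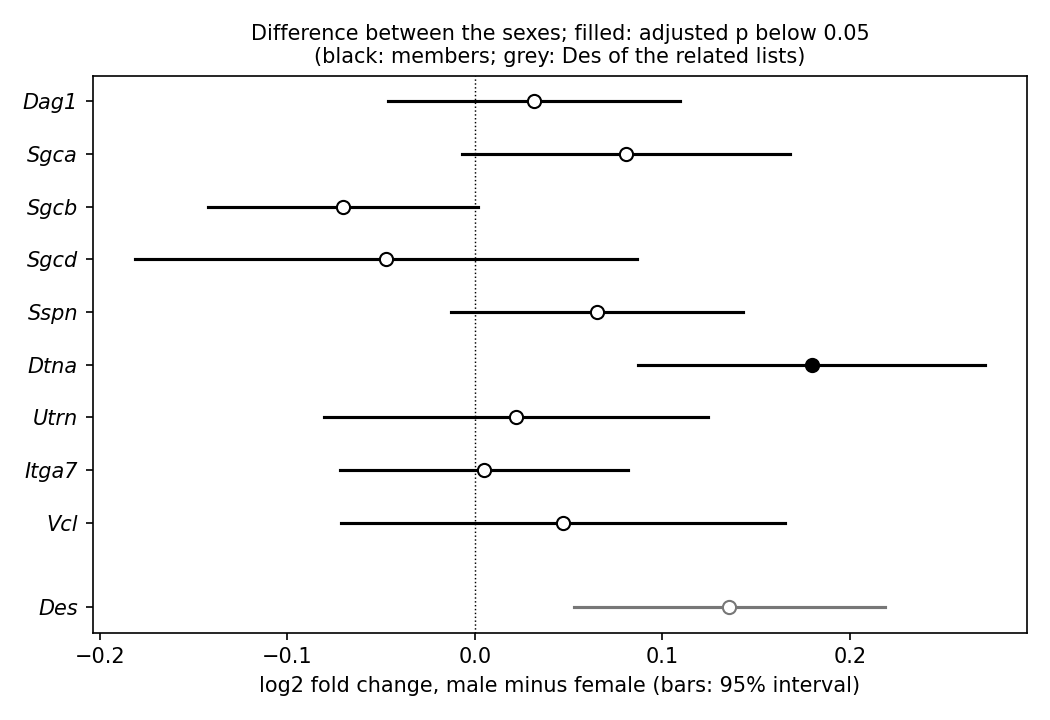
Log2 fold change, male minus female (horizontal axis), with its 95% interval for the 9 genes (black) and for Des of the third related list (grey). The filled point, Dtna at 0.18, has an adjusted p below 0.05.

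A set of 3 lists, also chosen with earlier results of these data known, holds other genes of the same system. The first list has 12 other genes of the complex and its matrix ligands, such as further sarcoglycans, beta-dystrobrevin, caveolin-3 and agrin, of which 11 were tested. In it 1 gene was higher in males and 0 in females, and 10 were not called. Over all genes tested, 3.79% were called in either direction. At an unadjusted p below 0.05 in edgeR, 2 were higher in each sex, where 19.5% of all genes tested passed. DESeq2 and limma-voom called 1 each. Its median log2 fold change was 0.035, with 6 positive and 5 negative values.

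The second list has 17 genes for enzymes, or subunits of enzymes, that build or supply the sugar chain by which dystroglycan binds laminin. Of these, 0 were called by edgeR and 0 had an unadjusted p below 0.05, where 19.5% of all genes tested passed. DESeq2 and limma-voom called 0. The median log2 fold change was 0.017, and the values ran from -0.12 to 0.096.

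The third list has 31 other genes of the costamere and of integrin adhesion, such as talins, integrin subunits, ankyrins and filamin C. Of these, 0 were called by edgeR and 5 of 31 had an unadjusted p below 0.05, 4 of them higher in males, where 19.5% of all genes tested passed. DESeq2 called 1 and limma-voom 0. The median log2 fold change was 0.028, with 22 positive and 9 negative values. Des had the smallest p: it encodes desmin, the intermediate filament that links Z-discs to costameres. It was at 2281, 2152, 2373 and 2279.8 CPM in female replicates 1 to 4 and at 2524, 2446, 2554 and 2457 CPM in male replicates 1 to 4, without overlap. The log2 fold change was 0.14 (SE 0.038; edgeR adjusted p = 0.074), and DESeq2 gave an adjusted p of 0.011 with the same size of change.

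**Figure D4:**
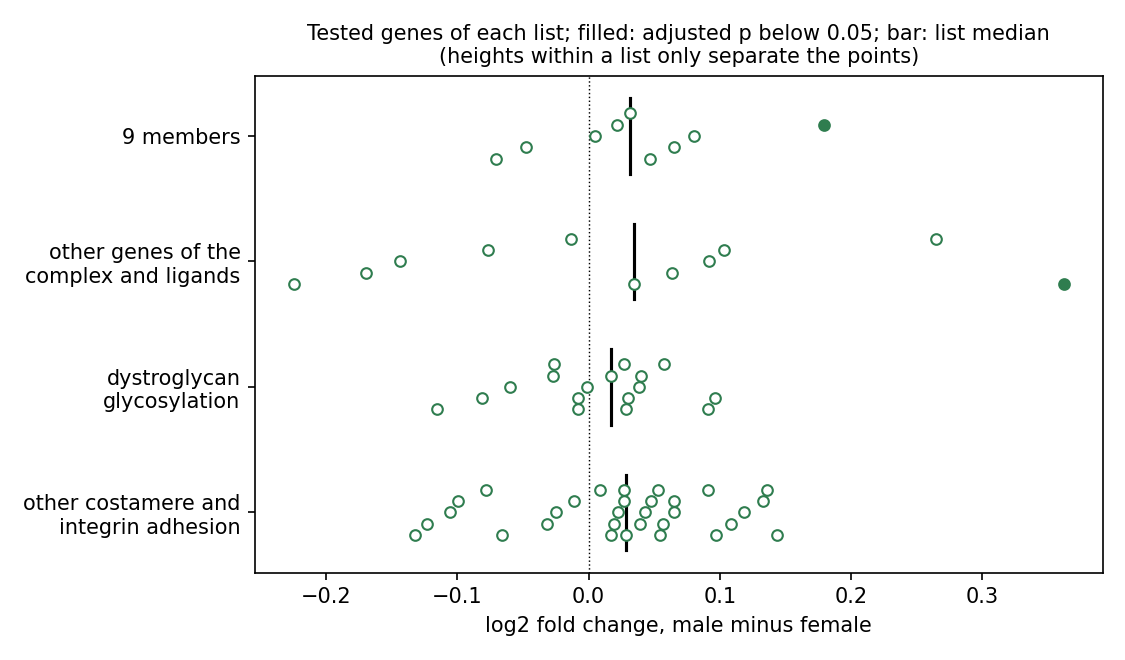
Log2 fold change, male minus female (horizontal axis), of each tested gene in the 9 genes and in the 3 related lists of 11, 17 and 31 tested genes. Filled points have an adjusted p below 0.05 and bars mark the list medians, which lie between 0.017 and 0.035.

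Ratios of counts per exon length within a library do not depend on the scaling between libraries. They were chosen after the data were seen and are given without a test. The ratio of Dtna to Dag1 was 0.0928 to 0.103 in females and 0.102 to 0.115 in males, and the sexes overlapped by female replicate 1 and male replicate 4. That of Dtna to Utrn was 0.806 to 0.912 in females and 0.872 to 1.01 in males, with overlap. The ratio of Dtna to Sgcb was 0.172 to 0.183 in females and 0.2 to 0.23 in males, without overlap.

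Among the sarcoglycans, the ratio of Sgcb to Sgca was 0.516, 0.515, 0.493 and 0.505 in female replicates 1 to 4. In male replicates 1 to 4 it was 0.441, 0.51, 0.43 and 0.452. Male replicate 2 lay within the female range and the other male libraries below it. The ratio of Sgcd to Sgca was 0.0396 to 0.0426 in females and 0.0319 to 0.0412 in males, with overlap. That of Sgcb to Dag1 was 0.555 ± 0.0167 in females and 0.518 ± 0.024 in males (SD, n = 4 each), also with overlap. The ratio of Utrn to Dag1 was 0.115 ± 0.00491 in females and 0.114 ± 0.00495 in males, that of Itga7 to Dag1 0.84 ± 0.0287 and 0.824 ± 0.0262, and that of Sspn to Dag1 0.711 ± 0.0324 and 0.728 ± 0.0262 (SD, n = 4 each). The ratios of Utrn, Itga7 and Sspn to Dag1 differed between the sexes by less than the spread between libraries.

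**Figure D5:**
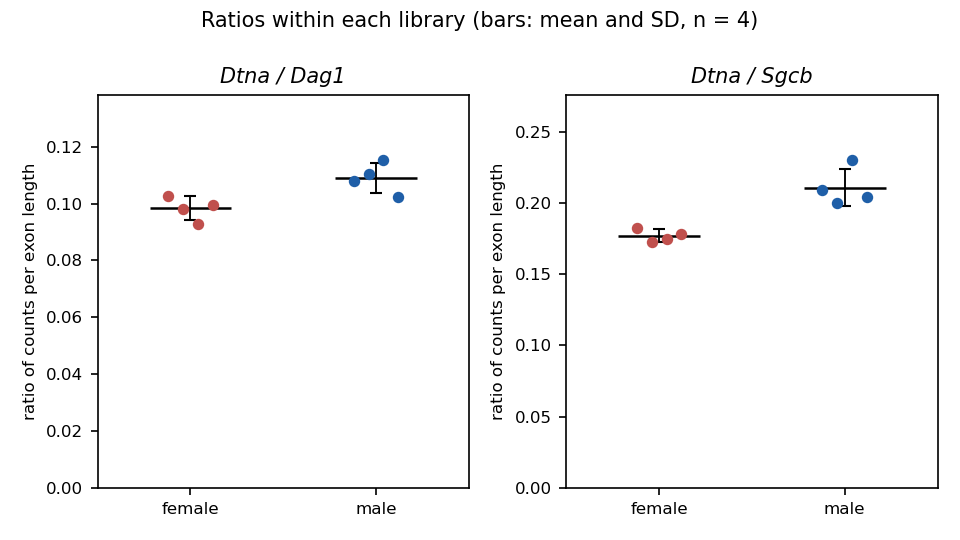
Ratio of counts per exon length (vertical axes, from 0) of Dtna to Dag1 and Dtna to Sgcb in 4 female (red) and 4 male (blue) libraries, with mean and SD. The sexes overlap for Dtna to Dag1 and are apart for Dtna to Sgcb, at 0.172 to 0.183 in females and 0.2 to 0.23 in males.

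The 3 genes most like Dtna over the 8 libraries were sought among 4589 genes whose log2 CPM averaged 5 or more, by the root mean square difference of log2 CPM centred on the mean of each gene. They were Rab3ip, an activator of Rab8 in vesicle transport (difference 0.027), Slc25a26, the mitochondrial carrier of S-adenosylmethionine (0.029), and Prdx5, a peroxiredoxin (0.029). The CPM of Rab3ip averaged 65.8 ± 2.48 over the females and 73.8 ± 3.14 over the males (SD, n = 4 each; log2 fold change 0.17, edgeR adjusted p = 0.054). Those of Prdx5 averaged 373 ± 13.5 and 413 ± 10.1 (0.15, edgeR adjusted p = 0.059), and Slc25a26 at 31.6 ± 1.53 and 34.7 ± 1.57 CPM (0.14, edgeR adjusted p = 0.14). All 3 missed the threshold. Their higher male mean and their peak in male replicate 3, shared with Dtna, follow from how they were chosen.

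Among the female libraries, replicate 2 was the highest in 4 of the 9 genes and replicate 4 in 0. Among the male libraries, replicate 3 was the highest in 4 and replicate 1 the lowest in 4, namely Sgcd, Sspn, Utrn and Itga7. The median deviation of the 9 genes from the mean of their sex was -0.049 on the log2 scale in male replicate 1 and between -0.012 and 0.016 in the other 7 libraries.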

How the data were processed

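Per the labels' protocols, RNA of dissected hearts was extracted with Trizol and made into Illumina TruSeq libraries. The authors deposited raw counts per gene for 8 libraries. The submitters' processing notes name Trimmomatic 0.36, STAR 2.5.2b, featureCounts, Subread 1.5.2 and GRCm38 (mm10). Annotation version, strand setting and the handling of reads shared by genes are not given in the sources used here. Tables of each sample were deposited too, with identical counts, exon coordinates and summed exon length. The authors also deposited a normalized signal for 16160 genes, found from its values to be the count divided by 1 factor per library (0.863 to 1.196); 100% of its values were whole within 0.01 when multiplied back.

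Symbols were matched for 48970 IDs. Genes were filtered (filterByExpr, minimum count 10, minimum total 15), scaled by TMM and tested, male minus female, with the quasi-likelihood test of edgeR 4.0.16 in R 4.3.3, with Benjamini-Hochberg adjustment over all 16180 genes and a threshold of 0.05. CPM used TMM-scaled totals, and log2 CPM a prior count of 2. The SE is the log2 fold change over the square root of F, and 95% intervals use it and are not adjusted for the number of genes. Alternatives were other scalings and filters, DESeq2 1.42.0, limma-voom (limma 3.58.1), limma on log2 of the deposited signal plus 1, a replicate block and leaving out each library; reads recovered from the signal and thinning to the smallest total were added after the data were seen. The procedure was tested on simulated data, where it recovered 2% of 1.1-fold, 54% of 1.25-fold and 96% of 2-fold changes. Differences of about 1.1-fold were thus mostly missed there. No replicate pair of a sex agreed within sampling noise (mean chi-square per gene 7.47 to 23.8).

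The 9 genes and the lists were chosen with earlier results of these data known. The text names all 9 genes. From each related list it names up to 3 called genes per direction, or, with none called, the gene of smallest p, and from each cell type list up to 2 called genes per direction. Some genes that this rule takes are not reported here. A few further genes are named only as examples of what a list holds or as the largest part of a summed level. Genes sharing exons with the 9 were added after the data were seen.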

Additional observations from a re-analysis of the deposited data

Results flagged for a closer look

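A lone high or low library was looked for in 24 groups of 4 libraries, the 2 sexes for each of 12 named genes, and chance gives such a library in about 1 in 20 groups. In the male libraries, Dtna was at 55.3 CPM in replicate 3, with the other 3 between 50.1 and 50.8, and the gap to the nearest was 0.871 of the range, above Dixon's 95% critical value. Without that library the adjusted p of Dtna was 0.11 (edgeR). In the female libraries, Sgca was at 135.5 CPM in replicate 3, with a gap of 0.932 of a range that itself spanned only 133.4 to 135.5 CPM.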

How the results depend on the processing

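Over the 18 alternatives, the count of all genes called was 958 in DESeq2 and 917 without the filter on low counts (613 in the test reported). With a library left out it was 315 to 490, with 315 when male replicate 3 was left out, 354 for female replicate 2 and 379 for female replicate 3. It was 604 with 320 higher in males on the reads recovered from the normalized signal and 567 after thinning to the smallest total. The count among the 9 genes was 0 or 1 with a library left out and 1 in the other alternatives but the replicate block. Among the related lists it was 2 in DESeq2, Des among them, and 1 in the other 17. Replicate numbers did not pair the libraries: the correlations of same-numbered libraries after removal of the sex means were -0.047 to 0.054. With the replicate block, 427 genes were called, 0 of the 9 genes (Dtna adjusted p = 0.094) and 1 of the related genes. Signs of differences near 0 turned: Itga7 was at -0.00086 with upper quartile scaling and -0.013 to 0.023 with a library left out, Utrn at -0.010 to 0.055, with -0.010 and -0.0063 without female replicate 4 and male replicate 4, and Sgcd at -0.087 to 0.0092. No member other than Dtna was called in any of the 18, and Dag1, Sgca, Sgcb, Sspn, Vcl and Dtna kept their sign in all. The 9 genes rested on 847 to 21672 counts per gene and library, and the shares of counting error and of spread between libraries were not separated.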
